A study of Mus musculus with 6 samples.

Results

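The genes described here encode the proteins of the elastic fibre, and they were taken as the rows of the count table that carry 1 of 10 gene symbols: Eln, Fbn1, Fbn2, Fbln1, Fbln2, Fbln5, Efemp2, Emilin1, Mfap2 and Mfap5. Of these 10 genes 9 had a row among the 23197 genes listed, 7 passed the filter on low counts among the 13234 genes tested, and Eln and Mfap2 did not pass it. Fbn2 is not analysed here. The RNA came from primary smooth muscle cells of mouse blood vessels, the cells that contract the arterial wall, bought from a commercial supplier and grown in culture. Of the 6 libraries, 3 were labelled as transfected with siRNA against Arid3a (siArid3a) and 3 as negative control, with an incubation of 24 h after transfection. Arid3a is a transcription factor that binds AT-rich DNA. The siArid3a treatments are numbered 1 to 3, and the labels leave unsaid whether the numbers stand for distinct siRNAs or for repeats of 1. They name no separate cultures, so the p-values measure only the spread between these samples, and that spread may be technical. They mention angiotensin II in this cell model, and whether any of the 6 libraries had it is not stated.

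Elastic fibres give arteries their recoil. Tropoelastin, the product of Eln, is secreted, gathered on a scaffold of fibrillin microfibrils and cross-linked by lysyl oxidases into an insoluble core. Fibulins, the microfibril-associated glycoproteins and emilins bind elastin or fibrillin and guide or link these parts, and smooth muscle cells of the arterial media are the main makers of the fibre, mostly around birth.

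Total counts were 17029735 to 22799935 per library, and levels are given in CPM, counts per 1000000 counts of the library, scaled by the trimmed mean of M values (TMM). The targeted gene, Arid3a (mm10 chromosome 10, 79927043 to 79955018), had 16.6, 21.5 and 19.8 CPM in siArid3a libraries 1, 2 and 3, and 19.5, 16.8 and 22.6 CPM in control libraries 1, 2 and 3. edgeR estimated a log2 fold change of −0.03 (SE 0.13, adjusted p = 0.943, 95% interval −0.31 to 0.26). The transcript of the target was thus not detectably lower where the labels say it was targeted, and the directions given below belong to the libraries labelled siArid3a. Of 9 smooth muscle markers all were listed, and their summed level was 2073 to 2477 CPM in the libraries labelled siArid3a and 2008 to 2148 CPM in the controls, led by Cald1. Cald1 alone averaged 1559 CPM in the libraries labelled siArid3a and 1413 CPM in the controls, and Acta2 554 and 541 CPM. Smtn averaged 70.8 and 71.9 CPM and Cnn1 30.1 and 30.2 CPM. Low levels were also seen for Lmod1 (5.61 and 4.48 CPM), Tagln (1.22 and 1.46 CPM) and Myocd (1.47 and 1.02 CPM). Only 32.1% of the exonic bases of Tagln lie outside the spans of other genes, so many of its reads may not have been counted. Myh11 and Des, which mark differentiated smooth muscle, averaged under 1 CPM. Fibroblast markers summed to 269 to 306 CPM in the libraries labelled siArid3a and 309 to 343 CPM in the controls, with Dpt and Col15a1 under 1 CPM. Most of that difference was in Ly6a, at 73.8 ± 8.97 CPM in the libraries labelled siArid3a and 99.1 ± 15.8 CPM in the controls (SD, n = 3 each), while Pi16 and Col15a1 had higher means in the libraries labelled siArid3a. For Ly6a edgeR estimated a log2 fold change of −0.43 (SE 0.11, adjusted p = 0.128). DESeq2 called it (adjusted p = 0.0428), where DESeq2 called 1.69% of all tested genes. Each of the 7 fibroblast markers overlapped between the groups. Mesothelial and epithelial markers, led by Msln, summed to 99.7 to 115 CPM in the libraries labelled siArid3a and 117 to 132 CPM in the controls, with 5 of the 7, Epcam, Krt5, Krt14, Upk3b and Wt1, under 1 CPM. No marker of these lists was at 0 in all 6 libraries. In bulk RNA, fewer cells of a type and less RNA per cell cannot be told apart.

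The elastin transcript was close to absent from these cells. Eln (ENSMUSG00000029675, mm10 chromosome 5, 134702593 to 134747323, minus strand) had 3, 5 and 1 reads in siArid3a libraries 1, 2 and 3, and 0, 0 and 4 reads in control libraries 1, 2 and 3. That is 13 reads over the 6 libraries, where Fbln2 had 237804. The counts of 0 in control libraries 1 and 2 allow levels of up to 0.156 and 0.136 CPM, taking 3 counts as the limit and covering counting error only. Of the exonic bases of Eln 96.5% lie outside the spans of other genes, so shared spans leave nearly all of the gene open to counting. Both groups held Eln at this trace level, and a difference was not detectable at this depth. In the edgeR fit without a filter on low counts Eln had a log2 fold change of 1.05 (SE 1.37, adjusted p = 0.768).

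Mfap2 (ENSMUSG00000060572) was the other member near the floor. It encodes microfibril-associated glycoprotein 1, a small protein that binds fibrillin microfibrils. It had 14, 11 and 10 reads in siArid3a libraries 1, 2 and 3, and 5, 9 and 5 reads in control libraries 1, 2 and 3, over its span on the plus strand of chromosome 4 from 141010418 to 141015984. The scaled level was 0.593 ± 0.0609 CPM in the libraries labelled siArid3a and 0.319 ± 0.0782 CPM in the controls (SD, n = 3 each), and the groups did not overlap. Of the genes past the filter, 9.66% had groups that did not overlap with siArid3a higher. The share among genes below the filter, such as Mfap2, was not counted. A two-sided exact permutation test of log2 CPM gave p = 0.1, the smallest value that 3 against 3 libraries allow. Without a filter on low counts edgeR gave a log2 fold change of 0.87 (SE 0.65, adjusted p = 0.669).

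The scaffold and its organisers were present at very unequal levels, with Fbln2 at the top and Fbln1 the lowest of the 7 tested genes. To compare genes, CPM was divided by the kilobases covered by each gene's exons, and each mean here is over all 6 libraries. Fbln2, a fibulin found at the border of elastin and microfibrils and in basement membranes, led with 320.0 CPM per kilobase (range 270.3 to 375.1). Its level was above that of 99.5% of the listed genes. Efemp2, the fibulin-4 gene, whose product brings lysyl oxidase to tropoelastin, followed at 63.3 CPM per kilobase (59.4 to 68.7). Fbln5, whose product tethers elastin to microfibrils and to integrins on the cell surface, had 44.5 CPM per kilobase (41.7 to 48.1). Fbn1, fibrillin-1, the main strand of the microfibril, had 26.3 CPM per kilobase (21.1 to 30.0). The ranges of these 4 genes did not overlap with those of their neighbours in the order.

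Below them came Emilin1 with 16.1 CPM per kilobase (10.7 to 20.1) and Mfap5 with 15.7 CPM per kilobase (13.7 to 18.7). Emilin1 encodes a glycoprotein at the interface of elastin and microfibrils, and Mfap5 encodes microfibril-associated glycoprotein 2. The ranges of these neighbours overlapped, so their order is not set by the data. Fbln1, whose product lies within the elastic core of fibres, had 11.1 CPM per kilobase (9.56 to 13.3). A wide gap followed: Mfap2 had 0.377 CPM per kilobase (0.215 to 0.531), and the mean of Fbln1 was 29.5 times as high. Eln was last at 0.0146 CPM per kilobase (0 to 0.0361), above 13.7% of the listed genes, and Mfap2 was above 46.2% of them. The mean of Mfap2 was 25.9 times that of Eln, a ratio that rests on the 13 reads of Eln.

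**Figure D1:**
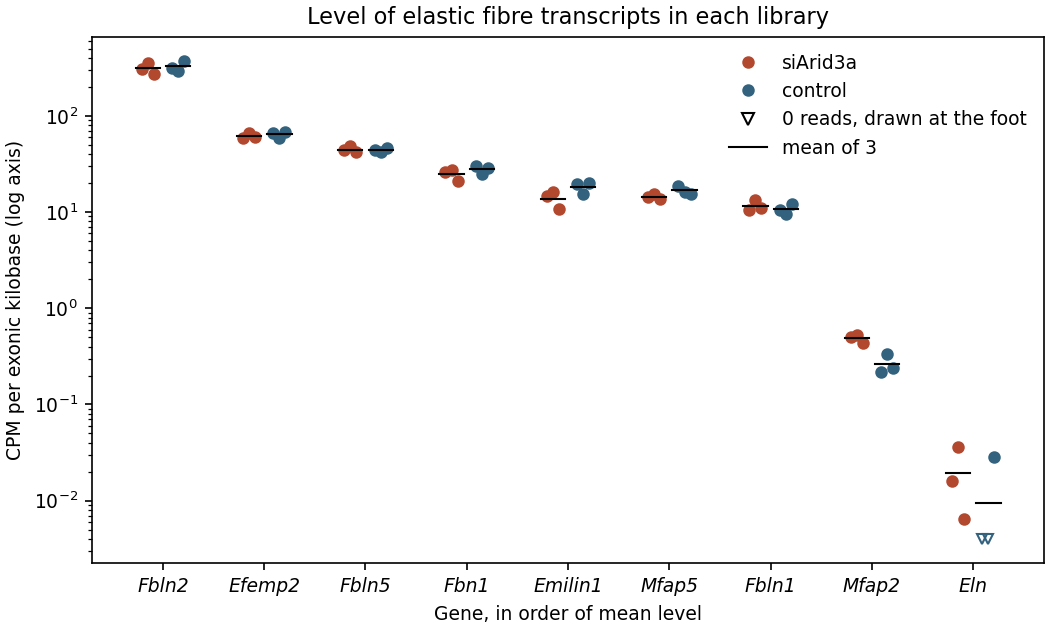
Level of the 9 listed elastic fibre genes in CPM per exonic kilobase on a log axis, with siArid3a libraries in red to the left of control libraries in blue, black bars for group means and open triangles for libraries with 0 reads. Fbln2 stands alone at 270.3 to 375.1, 6 genes lie between 9.56 and 68.7, and Mfap2 and Eln lie below 0.54.

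The gap between scaffold and elastin can also be read as a share of reads. The 9 genes together took 0.301%, 0.340% and 0.257% of all counts of siArid3a libraries 1, 2 and 3, and 0.317%, 0.282% and 0.357% of those of control libraries 1, 2 and 3. Fbln2 made up 66.2 ± 1.14% of those reads in the libraries labelled siArid3a and 65.6 ± 1.87% in the controls (SD, n = 3 each). Fbn1 made up 9.97 ± 0.440% and Fbln5 10.3 ± 0.597% in the libraries labelled siArid3a, against 10.7 ± 0.885% and 9.69 ± 0.481% in the controls (SD, n = 3 each). Per kilobase, Fbln2 was 12.6 ± 0.570 times Fbn1 in the libraries labelled siArid3a and 11.8 ± 1.31 times Fbn1 in the controls (SD, n = 3 each), and the ranges overlapped.

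RefSeq promoter windows on GRCm38.p6, the assembly of mm10, were matched by symbol to 7 members: Efemp2, Emilin1, Fbln1, Fbln2, Fbln5, Fbn1 and Mfap2. The sequences shown are of 4 genes whose levels ran from the second to the eighth place in the order, limited to bases upstream of the GENCODE gene start. They are the 250 bases at chr19:5473696-5473945 of Efemp2 (plus strand), at chr12:101819120-101819369 of Fbln5 (minus strand) and at chr15:85205699-85205948 of Fbln1 (plus strand), and the 244 bases at chr4:141010174-141010417 of Mfap2 (plus strand), each 5′ to 3′. Capitals mark GGGCGG on either strand, the GC box bound by Sp1-type factors.
Efemp2: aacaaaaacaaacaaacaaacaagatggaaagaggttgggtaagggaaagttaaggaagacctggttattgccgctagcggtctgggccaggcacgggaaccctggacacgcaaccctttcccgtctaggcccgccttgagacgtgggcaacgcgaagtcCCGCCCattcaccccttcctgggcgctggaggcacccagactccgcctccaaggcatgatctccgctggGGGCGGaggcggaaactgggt
Fbln5: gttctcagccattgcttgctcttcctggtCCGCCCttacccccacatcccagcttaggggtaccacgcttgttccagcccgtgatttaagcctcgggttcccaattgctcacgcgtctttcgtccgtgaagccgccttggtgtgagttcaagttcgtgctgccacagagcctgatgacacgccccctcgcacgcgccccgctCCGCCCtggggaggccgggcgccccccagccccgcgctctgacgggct
Fbln1: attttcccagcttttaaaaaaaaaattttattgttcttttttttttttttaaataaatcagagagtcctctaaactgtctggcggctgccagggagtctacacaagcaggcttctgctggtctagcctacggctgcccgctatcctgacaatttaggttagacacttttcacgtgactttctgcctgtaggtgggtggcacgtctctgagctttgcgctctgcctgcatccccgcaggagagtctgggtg
Mfap2: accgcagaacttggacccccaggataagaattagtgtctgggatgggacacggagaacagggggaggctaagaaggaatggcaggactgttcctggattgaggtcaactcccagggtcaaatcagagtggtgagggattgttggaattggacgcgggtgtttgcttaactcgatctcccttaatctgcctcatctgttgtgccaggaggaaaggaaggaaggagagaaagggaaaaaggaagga

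The stretches of Efemp2 and Fbln5 each held 2 GC boxes, and those of Fbln1 and Mfap2 held 0. This does not set the genes apart, since the other windows of Fbln1 and of Mfap2 each held 2, and the other window of Fbln5 held 0. In the full windows, which run from 250 bases before to 50 bases after a start, GGGCGG was in 8 of the 12 windows of the members, belonging to 6 of the 7 genes, where 35.7% of all 32851 windows in the table hold it. ATTAAA, an AT-rich word of the kind bound by Arid3a, was found in 0 of the 12 windows, where 13.9% of all windows hold it. TATAAA was found in 0 of 12 (13.6% of all windows), and the CArG box, the site of serum response factor in smooth muscle genes, in 0 of 12 (1.6% of all windows). All motifs were searched on both strands, and windows of the same gene overlap for Efemp2, Fbln1 and Mfap2. These matches describe the letters in the windows and say nothing of binding.

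Transcript levels were then compared between the libraries labelled siArid3a and the negative controls. Both had 24 h of incubation after transfection, so the comparison does not show what transfection itself did. None of the 7 tested members passed: edgeR called 0 of 7 at an adjusted p under 0.05, where 0% of all 13234 genes were called. At an unadjusted p under 0.05, 2 of the 7 were lower (Emilin1 and Mfap5), where 7.57% of all tested genes were lower and 14.9% differed in either direction. No member was higher at that level, where 7.36% of all tested genes were. DESeq2 called 0 of the 7, where it called 1.69% of all tested genes, and limma-voom also called 0. With control library 2, control library 3 or siArid3a library 2 left out, edgeR called 0 of the 7, where it called 0.997%, 0.756% and 0.332% of all tested genes. Of the 7 log2 fold changes 5 were below 0 and 2 above, with a median of −0.07, where all tested genes had a median of −0.01. After removal of each library's trend with GC content and exonic length, the median of the 7 was −0.00099. Eln and Mfap2 did not enter these counts.

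Emilin1 (ENSMUSG00000029163, chromosome 5, 30913402 to 30921277, plus strand) had the log2 fold change farthest from 0 of the 7 tested members. It had 72.2, 80.0 and 52.9 CPM in siArid3a libraries 1, 2 and 3, and 96.2, 76.8 and 99.4 CPM in control libraries 1, 2 and 3. The groups overlapped through siArid3a library 2 and control library 2, and siArid3a library 3 was the lowest of the 6. The mean was 68.3 ± 14.0 CPM in the libraries labelled siArid3a and 90.8 ± 12.2 CPM in the controls (SD, n = 3 each). edgeR estimated a log2 fold change of −0.41 (SE 0.13, 95% interval −0.69 to −0.13), that is 0.62 to 0.91 times the control level. Its unadjusted p was 0.00703 and its adjusted p 0.174, while the two-sided exact permutation test of log2 CPM gave p = 0.2 and DESeq2 an adjusted p of 0.0946.

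The call on Emilin1 depended on the processing. It passed in edgeR with no filter on low counts (log2 fold change −0.41, adjusted p = 0.0015) and after removal of each library's trend with GC content and exonic length (log2 fold change −0.34, adjusted p = 0.0328). In those fits 1.89% and 3.08% of all genes were called. Over all alternatives its adjusted p ran from 0.0015 to 0.602. Without siArid3a library 3 the value shrank to −0.25 (SE 0.11, edgeR adjusted p = 0.602). The Emilin1 transcript has the highest GC content of the 7 tested members, 61.1%, where the others have 46.9% (Fbln5) to 57.0% (Fbln2). Relative to Fbn1, Emilin1 per kilobase came to 0.566, 0.595 and 0.506 for siArid3a libraries 1, 2 and 3, and to 0.649, 0.625 and 0.705 for control libraries 1, 2 and 3. This ratio was chosen after the values were seen and was not tested. Its groups did not overlap, while those of Emilin1 itself did. How often ratios of other genes separate the groups was not counted. Of all tested genes taken singly, 10.4% had groups that did not overlap with siArid3a lower and 9.66% with siArid3a higher.

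Mfap5 (ENSMUSG00000030116, chromosome 6, 122505845 to 122529290, plus strand) was the other member with a lower mean beyond an unadjusted p of 0.05. It had 51.6, 55.2 and 49.2 CPM in siArid3a libraries 1, 2 and 3, and 67.2, 58.3 and 55.7 CPM in control libraries 1, 2 and 3. All siArid3a libraries were below all controls, the nearest pair being siArid3a library 2 and control library 3. Of the 7 tested members 1, Mfap5, had groups that did not overlap with siArid3a lower, where 10.4% of all tested genes did, and 0 had such groups with siArid3a higher (9.66% of all tested genes). edgeR estimated a log2 fold change of −0.22 (SE 0.09, unadjusted p = 0.0334, adjusted p = 0.289), and the two-sided exact permutation test gave p = 0.1, the smallest possible. The estimate was −0.13 (SE 0.10, edgeR adjusted p = 0.746) without control library 1, which held the highest value of Mfap5. The fibroblast and the mesothelial and epithelial marker sums, led in their differences by Ly6a and Msln, were also lower in the libraries labelled siArid3a. The smooth muscle sum was not, with 2073 to 2477 CPM against 2008 to 2148 CPM in the controls. The part of these marker sums in the values of Emilin1 and Mfap5 was not tested.

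**Figure D2:**
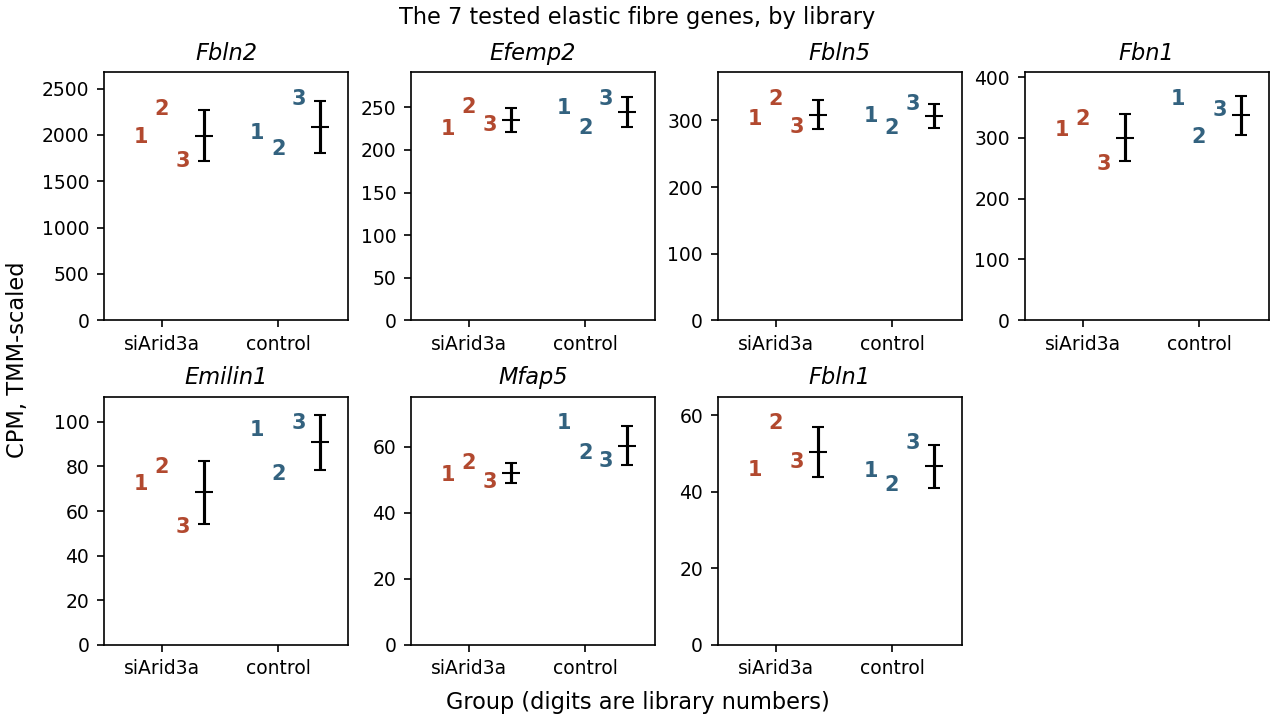
CPM of the 7 tested genes in each library, with siArid3a to the left of control, digits for library numbers and black marks for mean ± SD of 3 libraries, each axis starting at 0. The groups overlap in every panel but that of Mfap5, where the siArid3a libraries lie between 49.2 and 55.2 and the controls between 55.7 and 67.2.

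Fbn1 (ENSMUSG00000027204, chromosome 2, 125300594 to 125507993, minus strand), the strand of the microfibril, did not pass the test. It had 313, 330 and 256 CPM in siArid3a libraries 1, 2 and 3, and 364, 302 and 346 CPM in control libraries 1, 2 and 3. Control library 2 lay below siArid3a libraries 1 and 2, so the groups overlapped. edgeR estimated a log2 fold change of −0.17 (SE 0.10, adjusted p = 0.439, 95% interval −0.38 to 0.04). Without siArid3a library 3 it was −0.07 (SE 0.09, adjusted p = 0.891), and without control library 1 it was −0.11 (SE 0.12, adjusted p = 0.822). Of the exonic bases of Fbn1 79.9% lie outside other genes, so part of its reads may not have been counted.

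The fibulins spread around 0. Fbln2 (ENSMUSG00000064080, chromosome 6, 91212455 to 91272540, plus strand) had 1977, 2279 and 1722 CPM in siArid3a libraries 1, 2 and 3, and 2018, 1846 and 2390 CPM in control libraries 1, 2 and 3. Its spread within each group was larger than the difference between the means, and edgeR estimated a log2 fold change of −0.07 (SE 0.12, adjusted p = 0.840, 95% interval −0.31 to 0.18). That value was above 0 with the GC and length trend removed (0.0073), without control library 3 (0.04) and without siArid3a library 3 (0.03).

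Fbln5 and Efemp2, whose products act together with lysyl oxidases on tropoelastin, had the smallest estimates beside Fbln2. Fbln5 (ENSMUSG00000021186, chromosome 12, 101746565 to 101819055, minus strand) had 302.8, 332.5 and 290.6 CPM in siArid3a libraries 1, 2 and 3, and 306.3, 288.0 and 324.2 CPM in control libraries 1, 2 and 3. Control libraries 1 and 3 lay among the siArid3a values. edgeR estimated a log2 fold change of 0.01 (SE 0.08, adjusted p = 0.963, 95% interval 0.89 to 1.14 times the control level). Its sign turned under other scalings, so it has no direction here. Efemp2 (ENSMUSG00000024909, chromosome 19, 5473954 to 5482517, plus strand) had 225.2, 250.9 and 229.2 CPM in siArid3a libraries 1, 2 and 3, and 249.2, 225.2 and 260.1 CPM in control libraries 1, 2 and 3. The groups overlapped, and edgeR estimated a log2 fold change of −0.06 (SE 0.08, adjusted p = 0.779, 95% interval 0.85 to 1.08 times the control level).

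Fbln1 (ENSMUSG00000006369, chromosome 15, 85205949 to 85286535, plus strand) had the highest estimate of the tested members. It had 45.6, 57.9 and 47.8 CPM in siArid3a libraries 1, 2 and 3, and 45.5, 41.7 and 52.8 CPM in control libraries 1, 2 and 3. The groups overlapped, and siArid3a library 2 held the highest value. edgeR estimated a log2 fold change of 0.11 (SE 0.11, adjusted p = 0.674, 95% interval 0.92 to 1.27 times the control level). Without siArid3a library 2 it was 0.0020 (SE 0.11, edgeR adjusted p = 0.996).

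**Figure D3:**
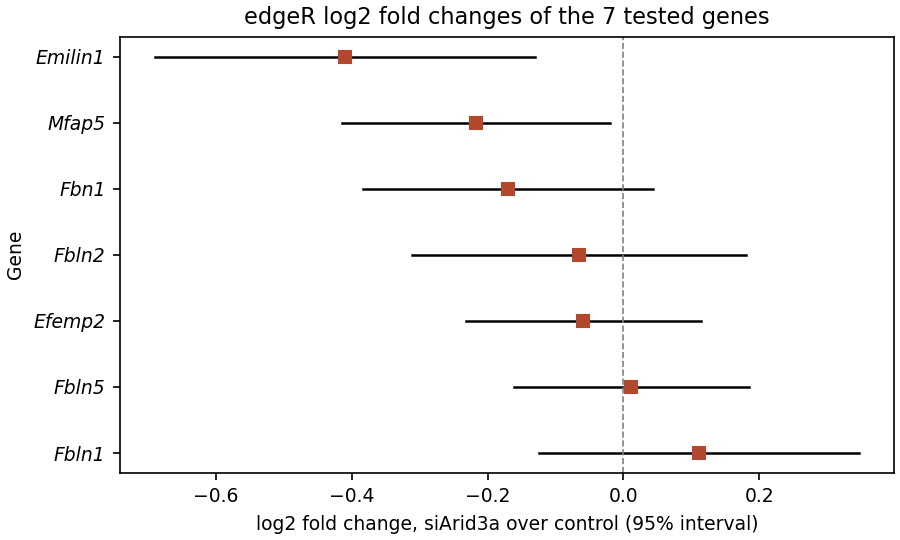
edgeR log2 fold change of siArid3a over control for the 7 tested genes, with squares for the estimate and lines for its 95% interval, not adjusted for multiple testing. The intervals of Emilin1 (−0.69 to −0.13) and Mfap5 (−0.41 to −0.02) lie below 0 and the other 5 cross it.

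Within each group the tested members were high and low in the same libraries, a pattern that was seen in these values and not tested. Of the 7 genes all had their highest siArid3a value in library 2, where 33.4% of all tested genes did, and 5 had their lowest siArid3a value in library 3 (36.9% of all tested genes). Of the controls, library 2 held the lowest value of 6 of the 7 genes (37.2% of all tested genes), and library 3 the highest value of 5 (37.7%). The median deviation of the 7 genes from their control means on the log2 scale came to −0.10, 0.04 and −0.27 for siArid3a libraries 1, 2 and 3, and to 0.03, −0.15 and 0.09 for control libraries 1, 2 and 3. The median over all tested genes was within 0.01 of 0 in each library. The scaling largely sets that value in advance, so it does not show how far a median of 7 genes can stray. The median of the 7 genes in siArid3a library 3 lay below the range of the control medians. Those of siArid3a libraries 1 and 2 lay inside it.

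**Figure D4:**
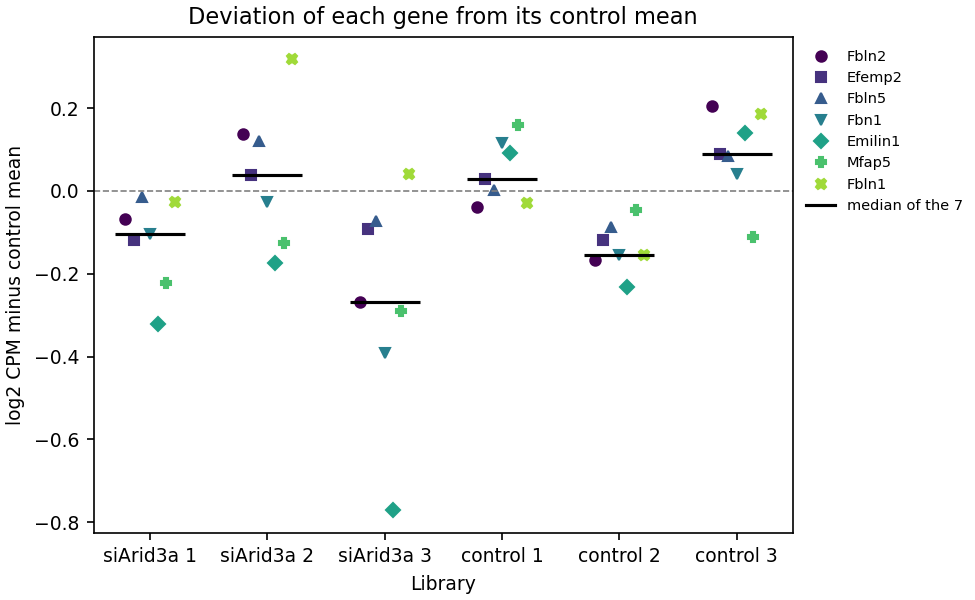
log2 CPM of each tested gene minus its mean over the control libraries, by library, with a black bar for the median of the 7 genes. The lowest points are Emilin1 at −0.77 and Fbn1 at −0.39, both in siArid3a library 3, and the medians of siArid3a library 3 and control library 2 are −0.27 and −0.15.

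The partners of the fibre were described with lists of 67 genes, of which 61 were listed and 50 tested. edgeR called 0 of the 50 at an adjusted p under 0.05, and 37 had a log2 fold change below 0 and 13 above, where 6765 of all 13234 tested genes lay below 0. Of the lysyl oxidases that cross-link elastin, 0 of 5 passed, with a median of −0.03. Lox, the main enzyme, had 919.3 ± 45.4 CPM in the libraries labelled siArid3a and 808.6 ± 56.5 CPM in the controls (SD, n = 3 each), a log2 fold change of 0.19 (SE 0.08, edgeR adjusted p = 0.322). Its groups did not overlap, with siArid3a higher. Loxl1, which acts on elastin in adult tissue, had a log2 fold change of −0.03 (SE 0.12, edgeR adjusted p = 0.933). Loxl3 had 66.4 ± 7.02 CPM in the libraries labelled siArid3a and 91.1 ± 6.76 CPM in the controls (SD, n = 3 each), with groups that did not overlap and an edgeR log2 fold change of −0.46 (SE 0.09, adjusted p = 0.10). Of these 5 genes, groups did not overlap in 1 with siArid3a lower and in 1 with siArid3a higher. Of all tested genes 10.4% and 9.66% had such groups.

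Of the microfibril and elastic fibre associated genes 0 of 16 tested passed, with 11 below 0 and a list median of −0.10. Biglycan (Bgn) and versican (Vcan), proteoglycans of the vessel wall, were at log2 fold changes of −0.09 (SE 0.09, edgeR adjusted p = 0.675) and −0.21 (SE 0.09, edgeR adjusted p = 0.309). Decorin (Dcn), a proteoglycan that binds collagen and microfibrils, had 422, 378 and 312 CPM in siArid3a libraries 1, 2 and 3, and 597, 512 and 448 CPM in control libraries 1, 2 and 3. The groups did not overlap, and edgeR estimated −0.48 on the log2 scale (SE 0.12, adjusted p = 0.114). Of the 16 genes, 3 including Vcan and Dcn had groups that did not overlap with siArid3a lower, and 1 with siArid3a higher. The shares over all tested genes were 10.4% and 9.66%. DESeq2 called Dcn (adjusted p = 0.0137) and Loxl3 (adjusted p = 0.0076) and no other partner. edgeR called Loxl3 without control library 2 (adjusted p = 0.0344), without control library 3 (adjusted p = 0.0273) and without siArid3a library 2 (adjusted p = 0.0386), and Dcn without control library 3 (adjusted p = 0.0273). The part of the fibroblast and mesothelial marker sums in the values of Dcn and Loxl3 was not tested.

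The latent TGF-beta binding proteins, which share the fibrillin fold, and their ligands had 0 of 7 past the test and a list median of −0.09. Ltbp2 had 553.9 ± 90.4 CPM in the libraries labelled siArid3a and 589.3 ± 100.2 CPM in the controls (SD, n = 3 each), while Ltbp1 and Ltbp3 were at log2 fold changes of −0.02 (SE 0.08) and −0.18 (SE 0.12). Of the elastin-degrading enzymes and inhibitors 0 of 11 passed, with 9 below 0 and the lowest list median, −0.20. Ctsb, the cathepsin B gene, had a log2 fold change of −0.20 (SE 0.08, edgeR adjusted p = 0.262), the cathepsin L gene Ctsl of −0.02 (SE 0.08) and the metalloprotease inhibitor gene Timp2 of −0.14 (SE 0.09). Groups did not overlap in 4 of the 11, Ctsb and Timp2 among them, all with siArid3a lower (10.4% of all tested genes). Of the elastin and microfibril receptors 0 of 11 passed, with a median of −0.07. The integrin subunit gene Itgb1 came out at 0.12 (SE 0.09), the galectin gene Lgals3 at −0.04 (SE 0.08) and Ctsa, a part of the elastin receptor complex, at −0.10 (SE 0.09). Among the receptors, groups did not overlap in 1 gene with siArid3a lower and in 1 with siArid3a higher. Of the latent TGF-beta list 0 genes had such groups.

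**Figure D5:**
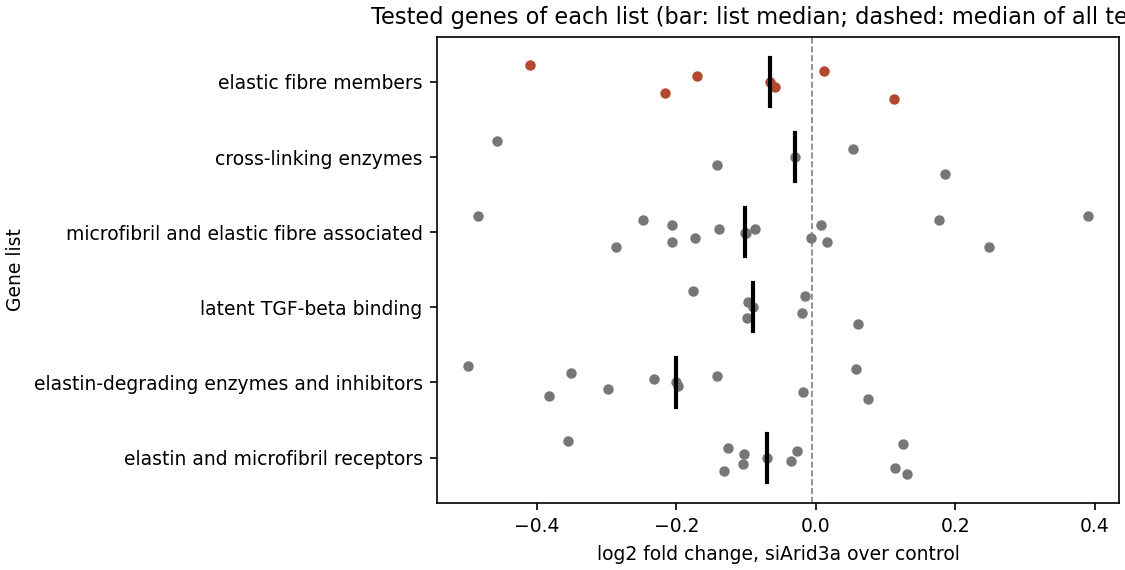
edgeR log2 fold changes of the tested genes of the elastic fibre list and the 5 partner lists, 1 point a gene, with bars for list medians and a dashed line for the median of all tested genes. The list medians lie between −0.20 and −0.03, and the all-gene median is −0.01.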

How the data were processed

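The deposited table holds raw counts, the authors' whole reads for each gene in 6 libraries. The submitters' processing notes name STAR 2.7.3a, featureCounts and mm10. The sources used here do not name the annotation, the strand setting or any filter. The length column equals the whole gene span in all 23197 rows. In GENCODE M21 (GRCm38, the assembly of mm10) the spans of other genes cover every exonic base of 1489 protein-coding genes. Of these 13.8% were listed, against 80.0% of the other 20462, so counts may hold intronic reads and lack reads in shared spans. Exonic lengths were therefore taken from GENCODE M21, and levels between genes are approximate.

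Low counts were removed with filterByExpr. The main test was the robust quasi-likelihood F test of edgeR 4.0.16 (R 4.3.3) with TMM scaling and group as the only term, two-sided, with Benjamini-Hochberg adjustment over all 13234 genes. A standard error was obtained by dividing the size of the log2 fold change by the root of its F statistic. Alternatives were other scalings and filters, DESeq2 1.42.0, limma-voom (limma 3.58.1), a non-robust fit, a replicate block, GC and length trend removal and each library left out. Exact permutation tests used scipy 1.17.1. Total counts of 17029735 to 22799935 per library set the precision. Pairs of libraries within a group differed by more than sampling noise (chi-square per degree of freedom 5.72 to 20.2). The fits were also run on simulated data with changes larger than those estimated for the tested members. That run does not show whether changes as small as those of the members would be called.

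The members and lists were chosen with earlier results of these data known. Named were the members, Arid3a and, since 0 partners passed, the 3 most abundant tested genes of each partner list; markers and genes named only as not tested or called elsewhere were added after their values were seen. The rule also asked for genes patterned like Eln, and none is given because Eln had 13 reads. Some genes are not analysed here.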

Additional observations from a re-analysis of the deposited data

How the results depend on the processing

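The count of genes called over the whole table was 0 in edgeR under every scaling and 0 in limma-voom, run with TMM scaling alone. It was 223 with DESeq2, 439 with no filter on low counts and 407 once the GC and length trend was taken out. With 1 library left out it was 0 to 132 (132, 100 and 44 without control library 2, control library 3 and siArid3a library 2). Of the 7 tested elastic fibre genes 0 were called, but 1 (Emilin1) with no filter and 1 (Emilin1) with the trend removed, and 0 with any library left out. Of the partner genes 0 were called, against 2 with DESeq2, 4 with no filter (Loxl3, Dcn, Mmp2 and Mmp3), 1 with the trend removed (Loxl3) and 0 to 2 with 1 library left out. The cause of these shifts was not tested. Arid3a turned to 0.032 with the trend removed and ranged from −0.13 to 0.084 with 1 library left out. Fbln2 turned to 0.0073 with the trend removed and ranged from −0.17 to 0.044. Fbln5 turned to −0.00085 with upper quartile scaling, −0.0035 with library size alone and −0.00099 with the trend removed, and ranged from −0.045 to 0.056. The signs of Emilin1 (−0.54 to −0.25 with 1 library left out), Fbn1, Mfap5, Efemp2 and Fbln1 held in all alternatives run, as did the number of genes at 1 CPM per kilobase or more, 7 of 9. Efemp2 came to −0.00055 with the trend removed and Fbln1 to 0.0020 without siArid3a library 2, so the signs of these genes give no firm direction. The median of the 7 was −0.17 to −0.01 with 1 library left out, and −0.00099 with the trend removed. With the longest transcript as the length, Mfap5 (22.6 CPM per kilobase) stood above Emilin1 (20.7).

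The values did not show a pairing of libraries by replicate number. Deviations of same-numbered libraries correlated at 0.03, −0.18 and −0.08 for numbers 1, 2 and 3, and not every library correlated best with its own number. With 3 libraries a group, such weak correlations cannot exclude a shared culture or batch. With the replicate number as a block edgeR called 0 genes, 0 members and 0 partners, with Emilin1 at −0.42 (adjusted p = 0.403).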

Other observations

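Several partners of the fibre were as scarce as Eln and Mfap2 in these cells. Of the microfibril and elastic fibre associated list, Hmcn1, Mmrn1, Mfap4, Adamts17 and Vtn were listed but too low to be tested. Mfap4, which encodes a glycoprotein that binds elastin and fibrillin, had 2 reads over the 6 libraries, both in control library 2. Of the elastin-degrading list, Ctss, Elane, Serpina1a and Serpina1b were too low to be tested, and Elane, neutrophil elastase, had 1 read, in siArid3a library 3. Of the receptors, the integrin genes Itga8 and Itga9 were too low to be tested. Of the exonic bases of Hmcn1 52.7% and of Itga9 51.0% lie outside other genes, so part of their reads may not have been counted.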
